A study of Mus musculus with 12 samples.

Results

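Oligodendrocyte precursor cells are the dividing glia of the adult brain from which new myelinating oligodendrocytes form. Here 7 genes used as markers of these cells and of their lineage were followed through the 3 Cuffdiff tables of the series: the growth factor receptor gene Pdgfra, the proteoglycan gene Cspg4, the transcription factor genes Olig1, Olig2 and Sox10, the receptor gene Gpr17 and the tetraspan gene Lhfpl3. The members were the rows whose gene field names 1 of these symbols. That gave 8 gene models in each table, 1 per gene and a second for Olig2, where the table of knockdown against wild type held 30995 models in all, that of rescue against knockdown 31041 and that of rescue against wild type 31042. All 7 genes were found, and all 8 models were tested by the authors and had a mean of at least 1 FPKM (a measure of expression corrected for the length of the transcript and the size of the library) in each table.

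The groups were male mice, F1 hybrids of C57Bl/6 and 129/SvlmJ, 14 weeks old, with 4 animals each. Wild type mice carry the label WT, Grin1 knockdown mice the label GluN1 (NR1 in the tables), and Grin1 knockdown mice with Cre rescue the label GluN1Cre. Grin1 encodes the obligatory subunit of the NMDA-type glutamate receptor. All 12 animals were given tamoxifen from 10 weeks of age, as 6 mg oral gavage together with roughly 14 mg from chow, so the controls share this exposure. The labels do not name the promoter that drives Cre, and by the group names no wild type animal carried it. RNA of the frontal cortex was poly(A)-selected and sequenced. The tables give 1 FPKM value per group and table and no value per animal. Read depth and the spread between animals are therefore unknown, and every p and q printed here was computed by the authors with Cuffdiff. In the authors' deposited table Grin1 lay at 138 FPKM in wild type and 56.7 FPKM in knockdown (41.0% of wild type, q = 0.00456), and at 86.7 FPKM in rescue against 65.7 FPKM in knockdown (q = 0.038).

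Platelet-derived growth factor, sensed by the receptor PDGFRA, keeps precursors dividing and alive, and the proteoglycan NG2, encoded by Cspg4, is their classical surface marker. OLIG2 sets up the lineage, OLIG1 acts with it later on, and SOX10 drives both the lineage and the myelin genes. GPR17 marks precursors that have committed to differentiate and acts as a brake on their maturation. Neurons form synapses onto these precursors, which carry glutamate receptors. Pdgfra is also expressed by meningeal fibroblasts, Cspg4 by pericytes, and Olig1, Olig2 and Sox10 by mature oligodendrocytes. In a bulk sample, fewer cells of a type and less RNA per cell cannot be told apart.

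Promoter sequences are shown for 2 members on which the results turn: Lhfpl3, which had the smallest p-value of the set, and Olig2, at which the authors assembled a pair of models. Each is the 300 bases from 250 before to 50 after the gene's start from RefSeq (build GRCm38.p6); windows of 4 of the 7 genes were used here. Capitals mark the palindromic E-box CAGCTG in Lhfpl3 and the SOX-type motif ACAATG in Olig2, where it lies on the opposite strand and so reads CATTGT. The Lhfpl3 window is chr5:22745804-22746103 and the Olig2 window chr16:91225300-91225599, both on the plus strand.
Lhfpl3: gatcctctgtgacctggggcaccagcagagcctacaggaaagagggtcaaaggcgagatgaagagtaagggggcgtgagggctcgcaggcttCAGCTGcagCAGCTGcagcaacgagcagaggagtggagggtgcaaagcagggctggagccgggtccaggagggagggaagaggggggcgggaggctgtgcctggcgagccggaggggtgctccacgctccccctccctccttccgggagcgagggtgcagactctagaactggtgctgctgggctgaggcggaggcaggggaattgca
Olig2: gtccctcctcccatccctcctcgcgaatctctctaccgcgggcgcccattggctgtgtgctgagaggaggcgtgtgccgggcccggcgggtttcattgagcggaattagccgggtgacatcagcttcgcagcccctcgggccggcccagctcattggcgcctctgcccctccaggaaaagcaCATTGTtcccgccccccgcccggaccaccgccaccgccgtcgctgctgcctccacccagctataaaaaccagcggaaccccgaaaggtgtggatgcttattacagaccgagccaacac

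In Lhfpl3 the 2 matches to CAGCTG begin at positions -158 and -149 from the start, a motif held on either strand by 16.4% of 32544 promoter windows of this length. In Olig2 the match to ACAATG spans positions -68 to -63 from the RefSeq start, and 12.4% of the windows hold it. GENCODE starts Olig2 earlier, at 91225457, and by that start the match lies inside the gene. The general E-box CANNTG, which includes CAGCTG, is in 72.3% of the windows, with 2 matches each in Lhfpl3 (both of them the CAGCTG matches) and Pdgfra and 0 in Cspg4 and Olig2. The SOX-type motif ACAAAG (18.7% of windows) had 0 matches in these 4 promoters. A match is a run of letters and not a shown binding site.

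None of the 8 models was called in any of the 3 comparisons at the study's own threshold, a p under 0.05 together with a q under 0.10. Over all tested models 2.52% were called in knockdown against wild type (1.66% higher, 0.858% lower). In rescue against knockdown the share was 0.689% (0.13% higher, 0.559% lower), and in rescue against wild type 0.841% (0.364% higher, 0.478% lower). At an unadjusted p under 0.05 the counts of members were 0, 1 and 0 in that order, where 7.91%, 4.19% and 4.32% of all tested models passed; the 1 was Lhfpl3. The rest of the account therefore describes levels, the size of differences that did not pass, and the neighbouring gene groups in which some genes did.

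By level, Olig1 came first and Cspg4 last. FPKM is scaled by transcript length, so levels of different genes can be set side by side. Over the 6 group values of the 3 tables Olig1 had a mean of 48.0 FPKM, 4.27 times that of the next gene. Lhfpl3 (mean 11.2 FPKM), Gpr17 (10.1), the main Olig2 model (9.94), Pdgfra (9.14) and Sox10 (8.71) lay close together. The ranges of group values of neighbours in this order overlapped from Lhfpl3 through Sox10: 9.77 to 13.0 FPKM for Lhfpl3, 9.48 to 10.6 FPKM for Gpr17, 9.44 to 10.5 FPKM for Olig2, 8.94 to 9.49 FPKM for Pdgfra and 8.49 to 9.08 FPKM for Sox10. Cspg4, at a mean of 2.90 FPKM and at most 2.996 FPKM, lay below all of them.

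**Figure D1:**
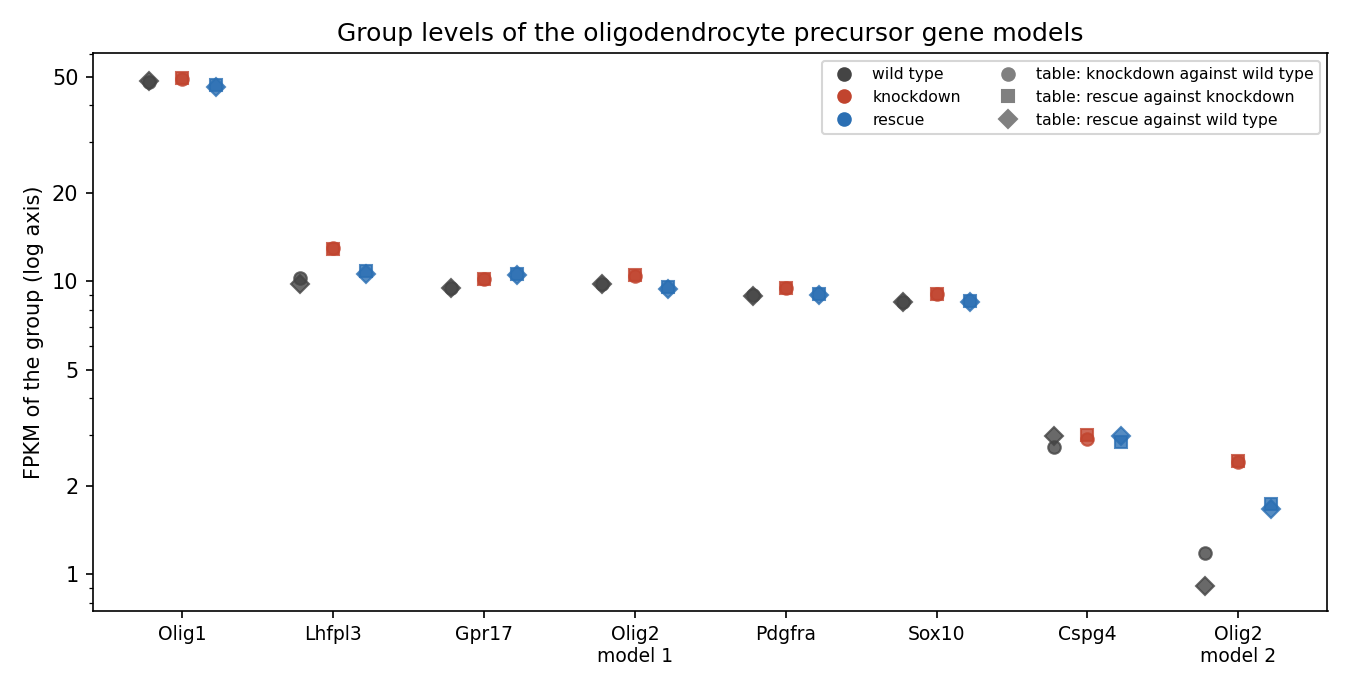
FPKM (log axis) of each gene model in wild type, knockdown and rescue cortex, with 1 point per group and table and the table given by the point's shape; no error bars can be drawn because the tables hold no values per animal. Olig1 lies near 48 FPKM, 5 genes lie between 8.49 and 13.0 FPKM, and the second Olig2 model shows the widest spread, from 0.915 to 2.44 FPKM.

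Among the receptor and surface genes, Pdgfra (chromosome 5, 75152292 to 75198215 on the plus strand of GRCm38 in GENCODE M21) lay at 8.98 FPKM in wild type and 9.46 FPKM in knockdown in the table of this pair. It lay at 9.49 FPKM in knockdown and 9.03 FPKM in rescue in the next table, and at 8.94 FPKM in wild type and 8.95 FPKM in rescue in the last. The knockdown value was thus the highest of the groups, by 5.30% over wild type (log2 fold 0.07, p = 0.367 in the authors' deposited table), and rescue and wild type differed by 0.0899%.

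Cspg4 (chromosome 9, 56865033 to 56899870, plus strand) lay at 2.73 FPKM in wild type and 2.91 FPKM in knockdown, at 2.996 FPKM in knockdown and 2.83 FPKM in rescue, and at 2.98 FPKM in wild type and 2.97 FPKM in rescue. The 2 wild type values of Cspg4, from the same 4 animals in separately built tables, differed by 0.12 on the log2 scale, more than the log2 fold of 0.09 between knockdown and wild type (p = 0.353 in the authors' deposited table). For this gene the difference between groups is thus no larger than that between tables.

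Gpr17 (chromosome 18, 31942997 to 31949636, minus strand) was the 1 member with a positive log2 fold in all 3 comparisons. It lay at 9.51 FPKM in wild type and 10.2 FPKM in knockdown, at 10.2 FPKM in knockdown and 10.6 FPKM in rescue, and at 9.48 FPKM in wild type and 10.5 FPKM in rescue. The largest of these differences, rescue over wild type, was 10.7% (log2 fold 0.15, p = 0.103 and q = 0.9999 in the authors' deposited table). The gene lies wholly inside Lims2, a gene on the other strand, and the strandedness of the libraries is not given in the sources used here, so reads of the pair may not be separable. Lims2, a focal adhesion gene, had its own model, at 4.01 FPKM in wild type, 4.85 FPKM in knockdown and 4.87 FPKM in rescue in the first and second tables (log2 folds 0.27 for knockdown over wild type and 0.0033 for rescue over knockdown). In rescue against wild type Lims2 lay at 4.02 FPKM in wild type and 4.83 FPKM in rescue (log2 fold 0.27). Its log2 fold was thus also positive in all 3 comparisons, with no call.

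Among the transcription factors, Sox10 (chromosome 15, 79154908 to 79165240, minus strand) lay at 8.49 FPKM in wild type and 9.03 FPKM in knockdown, at 9.08 FPKM in knockdown and 8.60 FPKM in rescue, and at 8.52 FPKM in wild type and 8.51 FPKM in rescue. Knockdown was again highest, by a log2 fold of 0.09 (p = 0.359 in the authors' deposited table), and rescue and wild type had a log2 fold of -0.0026. Of the other SoxE genes, Sox8 had log2 folds of -0.10, -0.07 and -0.16 in the 3 comparisons. Sox9, which is also an astrocyte gene, lay at 7.24 FPKM in wild type and 8.31 FPKM in knockdown (p = 0.0329, q = 0.511 in the authors' deposited table), and at 8.34 FPKM in knockdown and 7.20 FPKM in rescue (p = 0.0200, q = 0.823 in the authors' deposited table).

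Olig1 (chromosome 16, 91269772 to 91271933, plus strand) lay at 47.9 FPKM in wild type and 49.1 FPKM in knockdown, at 49.4 FPKM in knockdown and 46.9 FPKM in rescue, and at 48.2 FPKM in wild type and 46.3 FPKM in rescue. Its difference between knockdown and wild type, 2.501%, was the smallest of the 8 models. Olig2 lies 41094 bases upstream of Olig1 (91225457 to 91228677, plus strand). Its main model lay at 9.83 FPKM in wild type and 10.4 FPKM in knockdown, at 10.5 FPKM in knockdown and 9.58 FPKM in rescue, and at 9.83 FPKM in wild type and 9.44 FPKM in rescue. For both genes the order was knockdown, wild type, rescue, with no pair called. The related gene Olig3 is listed at 0 in every group.

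The second Olig2 model had the largest folds and the lowest levels of the set. It lay at 1.18 FPKM in wild type and 2.41 FPKM in knockdown (log2 fold 1.03, p = 0.119 in the authors' deposited table), at 2.44 FPKM in knockdown and 1.73 FPKM in rescue (-0.50), and at 0.915 FPKM in wild type and 1.67 FPKM in rescue (0.87). A log2 fold at least as far from 0 is rare in these tables: 0.424%, 1.10% and 0.361% of models with a mean of at least 1 FPKM had a larger one. The 2 wild type values, from the same animals, differed by 0.36 on the log2 scale. Computed from the other 2 tables, the Olig2 folds of this model were 1.37, -0.17 and 0.54 in place of 1.03, -0.50 and 0.87. The tables give no strand, but they number models in runs of 1 strand: of the 40 named models nearest in number to the main Olig2 model, 37 lie on the plus strand in GENCODE in the first table, while of the 40 nearest to the second Olig2 model 39 lie on the minus strand. In the tables with rescue, 40 and 39 of the 40 neighbours of the second model were on the minus strand as well. Olig2 itself is on the plus strand, so the symbol and the numbering of this model disagree, and its values are reported as uncertain for Olig2.

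Lhfpl3, a member of the LHFPL tetraspan family and a marker of precursors with no well-described role in them, showed the largest difference among the 7 main models. It lies on the plus strand of chromosome 5, from 22746059 to 23275597. It lay at 10.3 FPKM in wild type and 13.0 FPKM in knockdown, 26.6% higher (log2 fold 0.34), with p = 0.174 and q = 0.9997 in the authors' deposited table. In the next table it lay at 12.9 FPKM in knockdown and 10.9 FPKM in rescue, 16.0% lower (log2 fold -0.25), with p = 0.0064 and q = 0.47 in the authors' deposited table. Between wild type (9.77 FPKM) and rescue (10.6 FPKM) the log2 fold was 0.11 (p = 0.615 in the authors' deposited table). Both knockdown values were above both wild type and both rescue values, but both values of a group come from the same animals and are not repeats.

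The smaller of these Lhfpl3 differences thus had the smaller p-value. The authors' assembly around the gene was not the same in the 3 tables. In the table of rescue against knockdown its locus began at 22738911 and held 2 models, Lhfpl3 and the long noncoding RNA A930003O13Rik. In the other 2 tables the locus began at 22550404 and held 5 and 6 models, among them models with no symbol of up to 89.0 FPKM in wild type. Whether the assembly accounts for the difference in p was not tested. The promoter window shown above lies within A930003O13Rik, which is on the minus strand and overlaps the first 849 bases of Lhfpl3. The models of that RNA were all at or below 0.502 FPKM.

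Of the other LHFPL genes 4 were tested, and in knockdown against wild type 1 of them rose. Lhfp rose from 15.8 to 21.0 FPKM (q = 0.00456 in the authors' deposited table; log2 fold 0.41), and lay at 21.1 FPKM in knockdown and 18.2 FPKM in rescue (-0.21, q = 0.772 in the authors' deposited table). Log2 folds of knockdown over wild type were -0.03 for Lhfpl2, -0.08 for Lhfpl4 and 0.10 for Lhfpl5, none of them called.

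**Figure D2:**
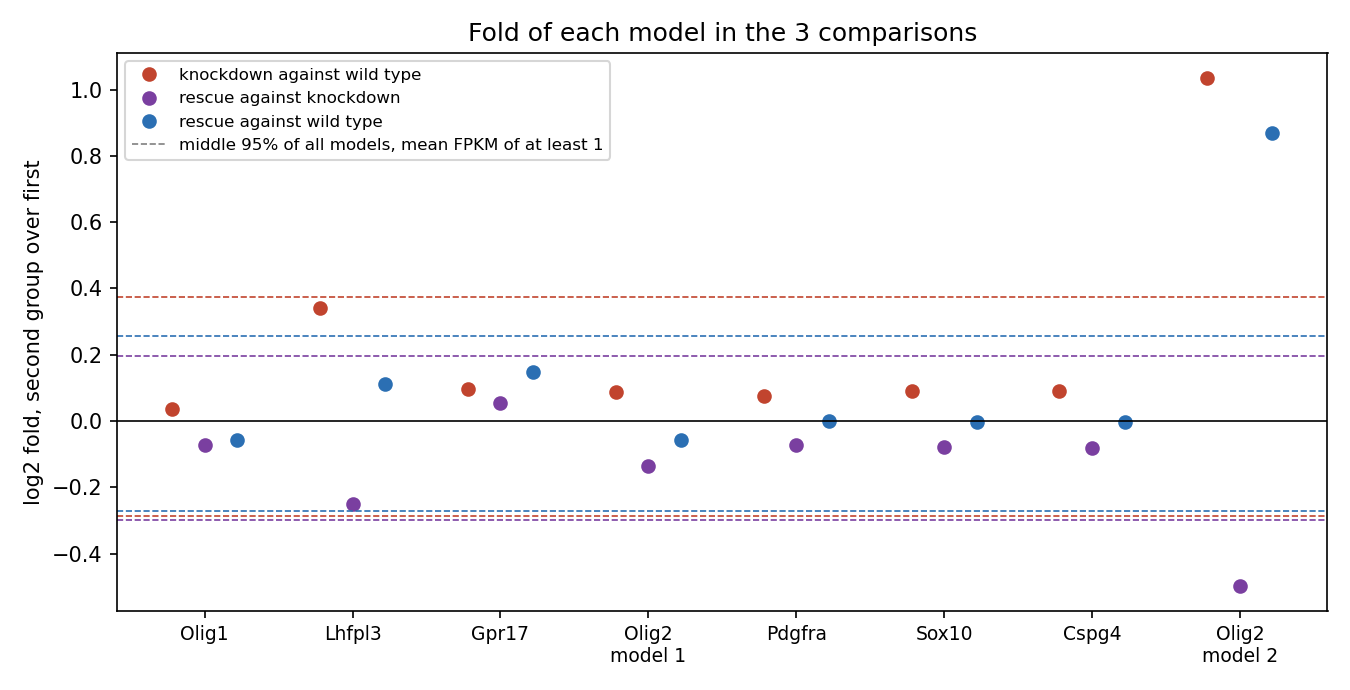
Log2 fold (second group over first) of each gene model in the 3 comparisons, with dashed lines at the limits of the middle 95% of all tested models with a mean of at least 1 FPKM in the comparison of the same colour. Outside the second Olig2 model every point lies within the lines of its own comparison; Lhfpl3 at 0.34 and -0.25 is nearest to them.

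Read across the set, all 8 models had a positive log2 fold in knockdown against wild type, with a median of 0.09, where 48.8% of all tested models were positive at a median of -0.0033. In rescue against knockdown 7 of 8 were negative, with a median of -0.08, where 52.8% of all tested models were negative at a median of -0.0056. In rescue against wild type 4 were positive and 4 negative, with a median of -0.00027, and centring the folds on the median of models with a mean of at least 1 FPKM made 6 positive. The first and second comparisons share the knockdown animals, so their signs are not independent of each other. Without the second Olig2 model the medians were 0.09, -0.08 and -0.0018. Some other marker lists, counted below, were also one-sided in knockdown against wild type, while the longer list of other precursor genes was not. All 9 astrocyte, 9 endothelial, 11 pericyte and 12 fibroblast models were positive, at medians of 0.15, 0.15, 0.20 and 0.37. Of 25 models of other precursor genes 15 were positive and 10 negative, and of 19 mature oligodendrocyte models 11 were positive and 8 negative. Of 9 microglial models 5 were positive, of 17 committed models 10 and of 11 neuronal models 4. In rescue against knockdown 10 of 10 astrocyte, 10 of 11 pericyte, 10 of 12 fibroblast and 5 of 9 endothelial models were negative. Of 24 models of other precursor genes 12 were negative and 12 positive there, and of 18 mature oligodendrocyte models 14 were negative and 4 positive.

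The differences were set beside what the authors' test called at similar levels. Among models within 1.5 times the mean FPKM of Pdgfra, 67 of 3378 were called in knockdown against wild type, and the smallest absolute log2 fold among them was 0.26, against 0.07 for Pdgfra. For Lhfpl3, 70 of 3402 models of like level were called, from an absolute log2 fold of 0.25 upward; its own 0.34 was above that smallest value and was not called. For the second Olig2 model, 76 of 1912 models of like level were called, from 0.34 upward, and its own 1.03 was not. For Olig1 the smallest called value at like level was 0.24, against its own 0.04. For genes such as Pdgfra and Olig1, a difference of a few percent was smaller than any that was called at like level, and its absence is not shown.

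Other genes typical of precursors were mixed. Of 24 listed genes 23 were found. Of their 25 tested models, 1 rose and 24 were not called in knockdown against wild type, with 5 at an unadjusted p under 0.05 and a median log2 fold of 0.10. In rescue against knockdown 0 of 24 were called by Cuffdiff, 0 also at an unadjusted p under 0.05, with a median of 0.0011. In rescue against wild type 1 of 24 was called, with 2 at an unadjusted p under 0.05. The called gene was Pcdh15 both times, a protocadherin gene: it rose from 2.60 to 3.39 FPKM in knockdown (0.38 on the log2 scale; q = 0.00456 in the authors' deposited table) and lay at 2.52 FPKM in wild type and 3.34 FPKM in rescue (0.41, q = 0.0098 in the authors' deposited table). Between knockdown and rescue Pcdh15 lay at 3.37 and 3.44 FPKM. Several listed genes, such as Fyn, Ncald and Cspg5, are also expressed by neurons.

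Genes of committed and newly formed oligodendrocytes, the stage after Gpr17 appears, gave 0 calls by Cuffdiff among 17 tested models in each comparison, and 0 also at an unadjusted p under 0.05. Their median log2 folds were 0.0087, -0.01 and 0.03. The list holds the merged model of Gp1bb and Sept5, at 304 FPKM in wild type, and Slc1a1, at 36.8 FPKM. Neu4 is also counted among the other precursor genes. How much of these values comes from committed oligodendrocytes was not tested. Bmp4, a signal that these cells make, lay at 1.42 FPKM in wild type and 1.73 FPKM in knockdown (p = 0.0882 in the authors' deposited table). Enpp6, a marker of newly forming oligodendrocytes, lay at 1.495 and 1.47 FPKM. Both were chosen after their values were seen. Of 21 models of lineage transcription factors and inhibitors 0 were called in each comparison by Cuffdiff, with 2 each time at an unadjusted p under 0.05.

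Among the PDGF and FGF genes, 2 of 12 tested models rose in knockdown against wild type and 10 were not called, with a median log2 fold of 0.10. The 2 were growth factor receptors that precursors share with other cells: Fgfr1 rose from 12.1 to 15.1 FPKM (q = 0.0197 in the authors' deposited table) and Fgfr2 from 7.496 to 9.18 FPKM (q = 0.0663 in the authors' deposited table). None of 12 was called in rescue against knockdown and none of 11 in rescue against wild type, with 3 and 1 at an unadjusted p under 0.05. Pdgfa, the main ligand of PDGFRA, lay at 22.9 FPKM in wild type and 21.4 FPKM in knockdown (log2 fold -0.09). Log2 folds of knockdown over wild type were -0.05 and -0.0041 for the 2 models of Pdgfb and 0.10 for Pdgfc. For Pdgfd, levels were 1.39 and 1.77 FPKM (0.35, q = 0.497 in the authors' deposited table).

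Of 15 models in the list of Notch, Lingo and other signals on precursor maturation, 1 rose in knockdown against wild type, 0 fell and 14 were not called. That was Gpr56, an adhesion receptor of precursors, astrocytes and microglia, from 21.4 to 26.0 FPKM (0.28 on the log2 scale; q = 0.0343 in the authors' deposited table). In rescue against knockdown 0 were called by Cuffdiff, with 1 at an unadjusted p under 0.05. In rescue against wild type 1 fell: Oprk1, the kappa opioid receptor, from 2.24 to 1.64 FPKM (q = 0.0453 in the authors' deposited table). Which cells the Oprk1 value comes from was not tested.

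Mature oligodendrocyte markers bound the lineage on the other side. Of 19 tested models 1 fell, 0 rose and 18 were not called in knockdown against wild type, at a median log2 fold of 0.02. The 1 was Opalin, a membrane protein of oligodendrocytes, from 6.57 to 4.73 FPKM (-0.47 on the log2 scale; q = 0.0888 in the authors' deposited table). No model was called by Cuffdiff among 18 in rescue against knockdown or 19 in rescue against wild type, with 3 and 1 at an unadjusted p under 0.05 and medians of -0.06 and -0.07.

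**Figure D3:**
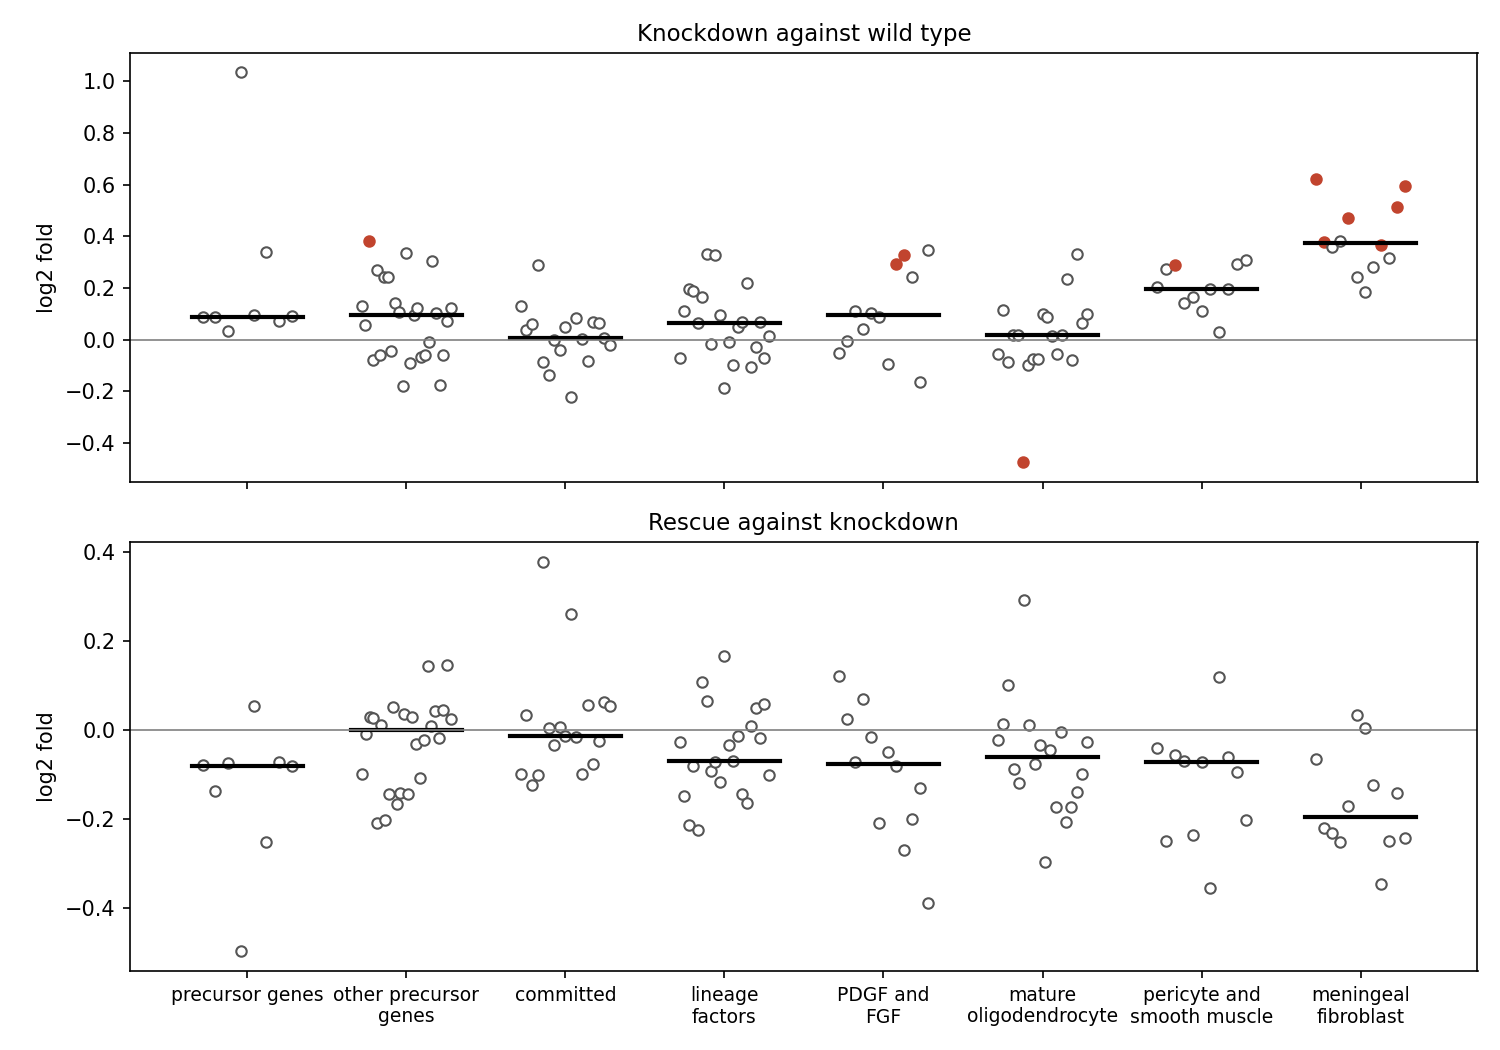
Log2 folds of the tested models in 8 gene lists for knockdown against wild type (above) and rescue against knockdown (below), with 1 point per model, filled where the authors' test called it, and a black bar at each list's median; the 7 main genes are left out of the other lists. The precursor genes have medians of 0.09 and -0.08, a range of 0.04 to 1.03 and of -0.50 to 0.05, and 0 filled points, while 6 of 12 meningeal fibroblast markers are filled in knockdown against wild type.

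Markers were also counted for other cells that share a member gene. For fibroblasts, which share Pdgfra, 6 of 12 markers rose, 0 fell and 6 were not called in knockdown against wild type, with a median log2 fold of 0.37, and their summed level was 89.9 FPKM in wild type and 117 FPKM in knockdown. The 4 with the smallest q were Islr, Aldh1a2, Igfbp2 and Col3a1, a collagen gene, at log2 folds of 0.59, 0.52, 0.38 and 0.62. The defining collagen gene Col1a1 rose from 1.71 to 2.38 FPKM, and Dcn lay at 4.10 and 5.25 FPKM without a call. In rescue against knockdown 0 of these 12 were called by Cuffdiff, with 5 at an unadjusted p under 0.05 and summed levels of 117 and 102 FPKM. For pericytes and smooth muscle, which share Cspg4, 1 of 11 rose (Vtn, from 24.4 to 29.7 FPKM) and 10 were not called, with summed levels of 66.0 FPKM in wild type and 77.5 FPKM in knockdown. The defining pericyte genes Pdgfrb, Rgs5 and Kcnj8 had log2 folds of 0.11, 0.20 and 0.03 with no call. No tested marker of either list was at 0. The part of these cells in the Pdgfra and Cspg4 values was not tested.

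Markers of neighbouring brain regions and of other cell types were counted in the same way. Of 14 models of olfactory bulb markers 12 rose in knockdown and 11 of 14 fell in rescue against knockdown, with summed levels of 77.0 FPKM in wild type and 186 FPKM in knockdown in the first table. Among the models tied at the smallest q, those with the largest folds in both cases were S100a5, Tbx21, Shisa3 and a model of Eomes, at log2 folds of 2.63, 2.58, 2.30 and 2.19 in knockdown over wild type. Of 11 striatal models 5 fell in knockdown. In rescue against wild type 9 of 12 bulb models were higher and 8 of 11 striatal models lower, and in rescue against knockdown 1 of 10 striatal models fell. Of 11 neuroblast models, which share Dlx1 and Dlx2 with the bulb list, 4 rose. Of 9 astrocyte markers 2 rose in knockdown, Gfap and Aqp4, and 2 of 10 models fell in rescue against knockdown, Gfap and Gjb6. Of 11 neuronal models 2 rose in knockdown (Gad1 and Gad2), and 0 of 9 microglial and 0 of 9 endothelial models were called by Cuffdiff, with 0 and 3 at an unadjusted p under 0.05. Of 13 listed cell division genes, which dividing precursors express, 7 were tested in each comparison. They gave 0 calls by Cuffdiff and 0 at an unadjusted p under 0.05. The others were too low to be tested, among them Mki67 at 0.243 FPKM and Cdk1 at 0.127 FPKM in wild type, so for them no change could be called. The part of bulb tissue in the member values was not tested.

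The genes most like Lhfpl3 were sought among 8284 other genes with a single model and a mean of at least 5 FPKM in every table, by the Euclidean distance of their 3 log2 folds. The nearest 5 were Tcn2 (distance 0.024), a vitamin B12 carrier, Slc13a3 (0.025), a dicarboxylate transporter, Gad1 (0.0295), an enzyme that makes GABA, Gdpd5 (0.040) and Rasa2 (0.045). The likeness is over 3 comparisons of 3 groups that share animals, and is a description only. All 5 were called in knockdown against wild type at log2 folds of 0.32 to 0.36, close to the 0.34 of Lhfpl3 that was not, and none in the other comparisons.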

How the data were processed

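Frontal cortex RNA of 12 mice was poly(A)-selected, per the labels' protocols. The submitters' processing notes list Cuffdiff 2.2.1.3, Cufflinks 2.2.1.0, TopHat2 2.1.0 and FastQC 0.65, with mm10 and GRCm38 as builds; settings are not given in the sources used here. Per the file headers, the authors deposited 3 Cuffdiff tables with 1 FPKM value per group and the p-value and q-value of their test for each assembled model. Each table has its own assembly and scaling, and values are tested only inside 1 table. Benjamini-Hochberg q-values recomputed over all tested models were within 5.14e-07 of the deposited ones. Log2 folds were recomputed from the authors' deposited FPKM values, since the table of rescue against knockdown holds damaged fold cells.

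A model was called at p under 0.05 and q under 0.10. Named are all member models, called members of each list (at most 4 by q), family members, ligands and the defining markers of cells that share a member. Motif matches are descriptions with no test. The members and lists were chosen with earlier results of these data known. GENCODE M21 (GRCm38) gave gene positions. Protein sequences were not analysed here. The q computation was tested on simulated data; Python 3.11.15, pandas 2.3.3 and numpy 2.4.6 were used. Alternatives were other q and p thresholds, a filter at 1 FPKM, a pseudocount of 1 FPKM, centred folds and folds from the other tables.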

Additional observations from a re-analysis of the deposited data

How the results depend on the processing

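No paired analysis was possible because the tables hold 1 value per group and none per animal, and for the same reason no animal could be left out. The count of called members stayed at 0 in all 3 comparisons at q under 0.05 and with q recomputed over models of at least 1 FPKM; at an unadjusted p under 0.05 alone it became 1 in rescue against knockdown. With folds of FPKM + 1 all 24 signs were as reported, which adding 1 to both values fixes in advance. Folds from the other 2 tables rest on the same animals and are not independent of those reported. With centred folds, and with folds from the other 2 tables, 22 of 24 signs each were as reported. The exceptions were in rescue against wild type, where values lie next to 0: centring gave 0.0098 for Cspg4, 0.0090 for Sox10 and 0.011 for the median of the 8 models, and the other 2 tables gave 0.0089, 0.012 and 0.010; the median of models with a mean of at least 1 FPKM, -0.012, is as far from 0 as these values. The second Olig2 model moved most: its log2 folds of 1.03 (knockdown over wild type), -0.50 (rescue over knockdown) and 0.87 (rescue over wild type) became 1.37, -0.17 and 0.54 from the other 2 tables, and 0.65, -0.33 and 0.48 with FPKM + 1. Leaving it out was chosen after seeing the data. Depth and the spread between animals are unknown, so what each limits was not tested.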
